A study of Mus musculus with 30 samples.

Results

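The Cyp3a genes encode cytochrome P450 enzymes of the 3A subfamily, and their tags were followed in the livers of mice fed casein or soy protein. The members are all rows of the count table whose gene symbol is Cyp3a followed by a number, and 4 of its 14173 genes met that rule: *Cyp3a11*, *Cyp3a25*, *Cyp3a59* and *Cyp3a13*. The GENCODE M21 annotation of GRCm38 lists 9 Cyp3a genes, of which *Cyp3a16*, *Cyp3a41a*, *Cyp3a41b*, *Cyp3a44* and *Cyp3a57* were not analysed here. The family was chosen by measured values, the differences in its counts between casein and soy livers in these same data, so the casein to soy comparisons are given as a description, without a test.

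Liver RNA came from 30 male mice labelled C57BL6/J, 6 per diet and 1 library per mouse, all aged 6 months, fasted for 4 h and on their final diet for 12 weeks from 12 weeks of age. The Cas-20% diet held 20% casein with 0.57 g methionine and 0.41 g cystine per 100 g, and the Cas-5% diet held 5% casein with 0.15 g and 0.1 g. The Soy-20% diet held 20% soy protein with 0.22 g of each amino acid, the Soy-20% + SAA diet held the same soy with added sulfur amino acids to 0.58 g and 0.41 g, and the Soy-10% diet held 11.5% soy protein with 0.13 g of each. All diets had the same fat content, mice were housed singly, and the source of the protein had already been casein or soy in the weeks before the final diets began. Casein mice and soy mice therefore differed in protein source throughout, and the 3 soy groups shared 1 earlier diet, the Soy-20% diet, while both casein groups had eaten Cas-20%.

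Cytochrome P450 enzymes of the 3A subfamily sit in the membrane of the endoplasmic reticulum, take electrons from the reductase encoded by *Por*, and oxidize steroids, bile acids and many drugs and plant compounds. Their transcription in hepatocytes is known to be raised by the nuclear receptors PXR (*Nr1i2*) and CAR (*Nr1i3*), each acting with a retinoid X receptor such as the one encoded by *Rxra*, on a base level set by factors such as HNF4A. In mice, *Cyp3a11* is the main inducible form in the liver, *Cyp3a25* and *Cyp3a13* are further hepatic and intestinal forms, and *Cyp3a41a* and *Cyp3a44* are best known from female liver.

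The 4 genes lie on chromosome 5 of GRCm38. *Cyp3a13* (ENSMUSG00000029727) stands apart at chr5:137892932-137921619 on the minus strand, and the other 3 lie in the main cluster. *Cyp3a11* (ENSMUSG00000056035) is at chr5:145854426-145879964 on the minus strand, *Cyp3a25* (ENSMUSG00000029630) at chr5:145977194-146009618 on the minus strand and *Cyp3a59* (ENSMUSG00000061292) at chr5:146079257-146113287 on the plus strand. *Cyp3a25* and *Cyp3a59* are near copies, 97.0% identical over 1990 aligned nucleotides of their transcripts, whereas every other pair of the 4 was between 71.7% and 73.4% identical. In the last 400 nucleotides, where 3′ libraries place their reads, this pair was 94.7% identical, and 3 of 351 stretches of 50 nucleotides (0.9%) were the same in both genes, against 0 of 326 stretches of 75 nucleotides. The labels give a read length of 50 and the study's methods 75, so both were searched. No stretch of either length in the 3′ end of *Cyp3a11* or *Cyp3a13* occurred in another Cyp3a transcript. Over the whole *Cyp3a11* transcript, 14.7% of stretches of 50 nucleotides and 3.7% of those of 75 occurred in another Cyp3a gene. For *Cyp3a13* the share was 0.0%. Stretches came from the longest coding transcript of each gene, so other 3′ ends were not searched. The separate counts of *Cyp3a25* and *Cyp3a59* are the less certain ones, since the pair is nearly identical and the alignment settings are not given in the sources used here.

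The bases upstream of the starts were compared between the members. RefSeq promoters were matched for 4 of 4 members, and the 250 bases before each RefSeq start were read from GRCm38.p6, in the direction of the gene. Capitals mark the half-site letters AGGTCA and AGTTCA that nuclear receptors bind and the letters CAAAGTCCA of an HNF4-type site, searched on both strands, none of which overlap. The *Cyp3a11* stretch is chr5:145879855-145880104 (minus strand), that of *Cyp3a25* chr5:146009619-146009868 (minus strand) and that of *Cyp3a59* chr5:146079008-146079257 (plus strand).
Cyp3a11: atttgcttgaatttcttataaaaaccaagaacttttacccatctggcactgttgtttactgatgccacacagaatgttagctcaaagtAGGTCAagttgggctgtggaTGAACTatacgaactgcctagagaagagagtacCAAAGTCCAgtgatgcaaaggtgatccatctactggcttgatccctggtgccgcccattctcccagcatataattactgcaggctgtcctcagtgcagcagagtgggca
Cyp3a25: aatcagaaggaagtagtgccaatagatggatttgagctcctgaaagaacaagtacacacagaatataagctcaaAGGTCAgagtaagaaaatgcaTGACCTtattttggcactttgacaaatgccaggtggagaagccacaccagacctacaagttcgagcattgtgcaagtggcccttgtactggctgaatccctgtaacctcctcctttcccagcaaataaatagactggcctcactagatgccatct
Cyp3a59: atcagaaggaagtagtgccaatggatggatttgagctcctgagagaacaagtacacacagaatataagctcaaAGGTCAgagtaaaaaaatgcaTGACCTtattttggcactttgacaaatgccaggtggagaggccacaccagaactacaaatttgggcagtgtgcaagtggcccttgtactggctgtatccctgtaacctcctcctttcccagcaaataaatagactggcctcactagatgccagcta

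The *Cyp3a25* and *Cyp3a59* stretches were 95.6% identical over 249 aligned bases and carried the same pair of AGGTCA matches, 1 on each strand. The *Cyp3a11* stretch was 65.7% identical to that of *Cyp3a25*, and held 1 AGGTCA, 1 AGTTCA read on the reverse strand and the CAAAGTCCA letters. The RefSeq start of *Cyp3a11* lies inside the GENCODE gene (chr5:145854426-145879964). Part of its stretch, with the CAAAGTCCA letters, therefore overlaps that gene. The *Cyp3a13* stretch, which is not printed, held none of these letters in this window. Of 27025 mouse promoters of the same length, 13.8% held AGGTCA, 11.9% held AGTTCA and 0.4% held CAAAGTCCA, and these matches are a description of the letters only.

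Counts per library summed to between 7694015 and 14565542 (median 10803734), so members were well covered: *Cyp3a11* had 4580 to 49285 raw counts per liver, *Cyp3a25* 1860 to 9049, *Cyp3a13* 692 to 1563 and *Cyp3a59* 34 to 393. All values below are normalized counts, which are raw counts divided by the size factor of the library, and each count is a tag at the 3′ end of a transcript and not scaled for length. All 4 members passed the filter on low counts in every comparison. The hepatocyte markers summed to between 671443 and 903956 normalized counts in all livers, against 265.6 to 616.6 for cholangiocyte, 1227 to 3296 for Kupffer cell, 2303 to 3174 for sinusoidal endothelial and 3030 to 4928 for stellate cell markers. Stellate cell markers summed to 3571 to 4928 on Cas-5% against 3042 to 3859 on Cas-20%, and cholangiocyte markers to 265.6 to 352.4 on Soy-10% against 346.0 to 616.6 on the other diets, and their part in the results was not tested. In whole liver RNA, fewer cells of a type and less RNA per cell cannot be told apart. Of the enterocyte markers only 1 of 5, *Fabp2*, was in the table, at 598.5 to 1156 on Cas-5% against 1077 to 2280 on Cas-20%. Hepatocyte markers summed to 702590 to 903956 on Cas-5% (median 845889) against 671443 to 777748 on Cas-20% (median 742160), and the part of either in the results was not tested. The summed acinar markers (5 of 6 in the table) lay between 164 and 628.8 in 29 livers and at 6075 in Soy-10% liver 4. That liver was also the lowest of its diet for *Cyp3a11*, *Cyp3a25* and *Cyp3a59*. Without it, 0 members were called in Soy-10% against either soy control, as with it. Values of genes outside the family without that liver are not given here.

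In Soy-20% + SAA livers 3 to 6, the slope of a library's counts on the GC content of transcript 3′ ends was 0.061 to 0.214 (log2 per 10% GC), against −0.069 to 0.033 in the other 26 libraries. The 3′ ends of the members are AT-rich, with a GC content of 31.0% in *Cyp3a11*, 35.0% in *Cyp3a25*, 35.5% in *Cyp3a13* and 29.5% in *Cyp3a59*. In livers 3 to 6 *Cyp3a25* had 1783 to 3070 counts, against 8647 and 5686 in livers 1 and 2. *Cyp3a11* had at most 24913, against 44024 and 27079. *Cyp3a59* had 160.0 to 216.7, against 375.5 and 160.1, and *Cyp3a13* 1070 to 1204, against 1041 and 988.2. The part of GC content in these levels was not tested. Because of the slope, log2 fold changes of the members that involve this diet, and its shares and ratios below, are also given without those 4 livers, which leaves livers 1 and 2.

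*Cyp3a11*, the main inducible form, was lowest on Cas-20% and highest on the soy diets. In Cas-20% livers 1 to 6 its normalized counts were 4586, 6275, 4956, 6251, 8177 and 6730, and in Cas-5% livers they were 15209, 13603, 12054, 10770, 11888 and 13067. The 2 casein groups did not overlap, and every Cas-5% liver lay above every Cas-20% liver. Soy-20% + SAA livers had 44024, 27079, 24833, 20169, 20379 and 24913, Soy-20% livers 20340, 26064, 33481, 36876, 34657 and 43713, and Soy-10% livers 34760, 39786, 28481, 25361, 36718 and 32197. The lowest of the 18 soy livers, at 20169, was above the highest of the 12 casein livers, at 15209, while the 3 soy groups overlapped widely. By the mean of 6 livers the order of the diets was Cas-20% (6162 ± 1292, SD), Cas-5% (12765 ± 1550), Soy-20% + SAA (26900 ± 8824), Soy-20% (32522 ± 8243) and Soy-10% (32884 ± 5335). The last 3 did not differ beyond their spread. The rank of its mean level among all genes of the table was 167 on Cas-20%, 79 on Cas-5%, 41 on Soy-20% + SAA, 34 on Soy-20% and 32 on Soy-10%.

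**Figure D1:**
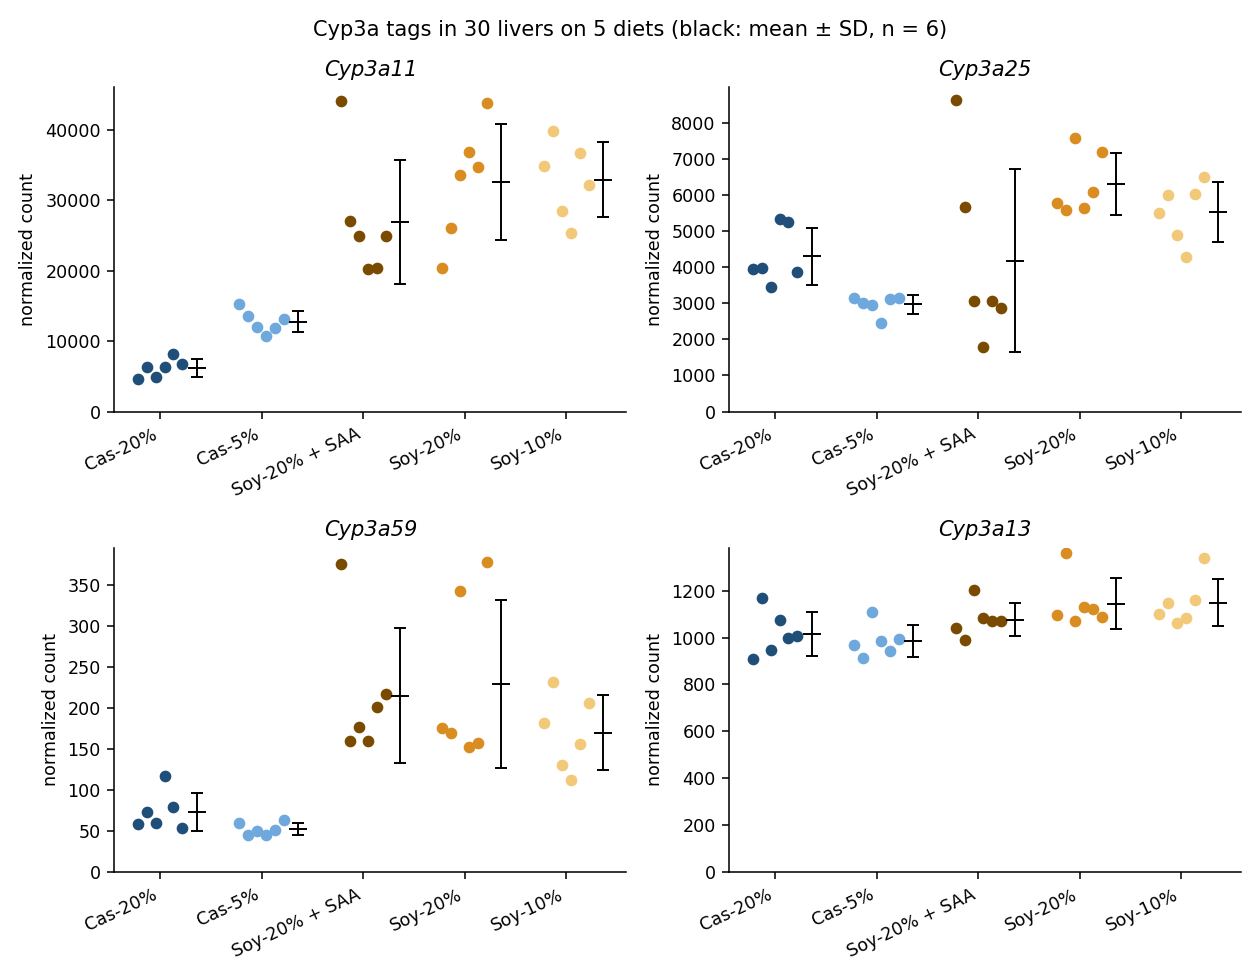
Normalized counts of *Cyp3a11*, *Cyp3a25*, *Cyp3a59* and *Cyp3a13* (vertical axes from 0) in each of 6 livers on the 5 diets, drawn as points from liver 1 to 6 with the mean ± SD in black. The *Cyp3a11* and *Cyp3a59* points of soy livers lie above most or all casein points, Soy-20% + SAA livers 3 to 6 are low for *Cyp3a25*, and *Cyp3a13* spans only 908.1 to 1359 in all 30 livers.

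*Cyp3a25*, a further hepatic form, had another order of diets. Its normalized counts were 3951, 3972, 3453, 5350, 5262 and 3859 in Cas-20% livers and 3157, 3019, 2947, 2461, 3119 and 3146 in Cas-5% livers. Here every Cas-5% liver lay below every Cas-20% liver, opposite to *Cyp3a11*. Soy-20% livers had 5775, 5585, 7590, 5656, 6085 and 7188 and Soy-10% livers 5518, 6012, 4893, 4279, 6032 and 6498. Soy-20% + SAA livers had 8647, 5686, 3070, 1783, 3062 and 2886, so that livers 1 and 2 lay in or above the range of the livers on the other soy diets (4279 to 7590 on Soy-20% and Soy-10%) and livers 3 to 6 (1783 to 3070) below all of them. The coefficient of variation was 60.5% in this diet against 8.9% to 18.5% in the other 4.

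*Cyp3a59*, the near copy of *Cyp3a25* on the opposite strand, was the scarcest member by tags. Cas-20% livers had 58.1, 72.9, 60.3, 116.8, 79.7 and 54.3 and Cas-5% livers 60.4, 44.8, 50.5, 45.1, 51.3 and 63.4. Soy-20% + SAA livers had 375.5, 160.1, 176.2, 160.0, 200.4 and 216.7, Soy-20% livers 175.9, 169.6, 341.7, 152.6, 157.6 and 378.0, and Soy-10% livers 181.7, 231.7, 130.7, 112.6, 156.1 and 206.1. All but the lowest soy liver, Soy-10% liver 4 at 112.6, lay above the highest casein liver, Cas-20% liver 4 at 116.8. Soy-20% + SAA liver 1 and Soy-20% livers 3 and 6 stood apart at 341.7 and above, and the same 3 livers had the 3 highest *Cyp3a25* counts. Soy-20% liver 6 and Soy-20% + SAA liver 1 also had the 2 highest *Cyp3a11* counts.

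*Cyp3a13*, the member outside the main cluster, was the most even. It ran from 908.1 to 1170 in Cas-20%, from 912.2 to 1110 in Cas-5%, from 988.2 to 1204 in Soy-20% + SAA, from 1072 to 1359 in Soy-20% and from 1060 to 1337 in Soy-10% livers. Its means lay between 985.0 ± 67.7 (Cas-5%) and 1148 ± 100.2 (Soy-10%).

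Casein was compared with soy at closely matched sulfur amino acids in the unrestricted and the restricted pair. The restricted pair also differed in protein content, 5% against 11.5%, and Soy-20% held less methionine than Cas-20%, 0.22 against 0.57 g per 100 g. In those comparisons the protein source cannot be told apart from these differences. With the unrestricted diets, Cas-20% against Soy-20% + SAA, mean *Cyp3a11* was 4.37 times lower on casein (log2 fold change −2.12 ± 0.20, SE) and mean *Cyp3a59* 2.92 times lower (−1.54 ± 0.24). *Cyp3a13* was at a like level in both (−0.08 ± 0.08). *Cyp3a25* was alike only by its mean (0.04 ± 0.30). Its Soy-20% + SAA livers 1 and 2 (8647 and 5686) lay above every Cas-20% liver (3453 to 5350). Livers 3 to 6 (1783 to 3070) lay below every Cas-20% liver. Groups did not overlap for 2 of 4 members, *Cyp3a11* and *Cyp3a59*, beside 1.18% of all 11988 genes tested that were lower on casein without overlap. Without Soy-20% + SAA livers 3 to 6 the log2 fold change of *Cyp3a11* was −2.53, that of *Cyp3a25* −0.74, that of *Cyp3a59* −1.87 and that of *Cyp3a13* −0.0016.

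With the restricted diets, Cas-5% against Soy-10%, *Cyp3a11* was 2.58 times lower on casein by its mean (log2 fold change −1.35 ± 0.11), *Cyp3a25* 1.86 times (−0.88 ± 0.09) and *Cyp3a59* 3.23 times (−1.67 ± 0.16). These 3 of 4 members did not overlap, beside 4.09% of all 12041 genes that were lower without overlap, and *Cyp3a13* differed by −0.20 ± 0.07 with 5 of 6 Cas-5% livers below every Soy-10% liver. With Cas-20% against the unsupplemented Soy-20%, *Cyp3a11* was 5.28 times lower (−2.40 ± 0.18), *Cyp3a25* 1.47 times (−0.55 ± 0.12), *Cyp3a59* 3.11 times (−1.63 ± 0.26) and *Cyp3a13* 1.13 times (−0.17 ± 0.08). Again 3 of 4 members did not overlap, beside 1.27% of all 11875 genes. The 3 comparisons share the family's selection, and 2 share the Cas-20% livers, so they are not separate evidence.

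The summed family followed *Cyp3a11*. Over 6 livers the sum was 11560 ± 1954 normalized counts on Cas-20%, 16778 ± 1734 on Cas-5%, 32380 ± 11288 on Soy-20% + SAA, 40208 ± 8753 on Soy-20% and 39740 ± 6060 on Soy-10%. It ran from 9416 to 19392 in casein livers and from 23197 to 54088 in soy livers, without overlap. Cas-20% was 2.80 times below Soy-20% + SAA and 3.48 times below Soy-20%, and Cas-5% was 2.37 times below Soy-10%. Soy-20% + SAA livers 1 and 2 had sums of 54088 and 33914, and livers 3 to 6 from 23197 to 29283. As a share of all counts in the library, the sum made up 0.103% ± 0.020 on Cas-20%, 0.170% ± 0.018 on Cas-5%, 0.295% ± 0.109 on Soy-20% + SAA (0.505% and 0.314% in livers 1 and 2), 0.369% ± 0.078 on Soy-20% and 0.376% ± 0.058 on Soy-10%. Without *Cyp3a11*, the remaining 3 members summed to a log2 ratio of −0.02 for Cas-20% against Soy-20% + SAA, in place of −1.49, but of −0.65 when Soy-20% + SAA livers 3 to 6 were also left out. The same 3 members stood at −0.51 for Cas-20% against Soy-20% and at −0.77 for Cas-5% against Soy-10%.

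**Figure D2:**
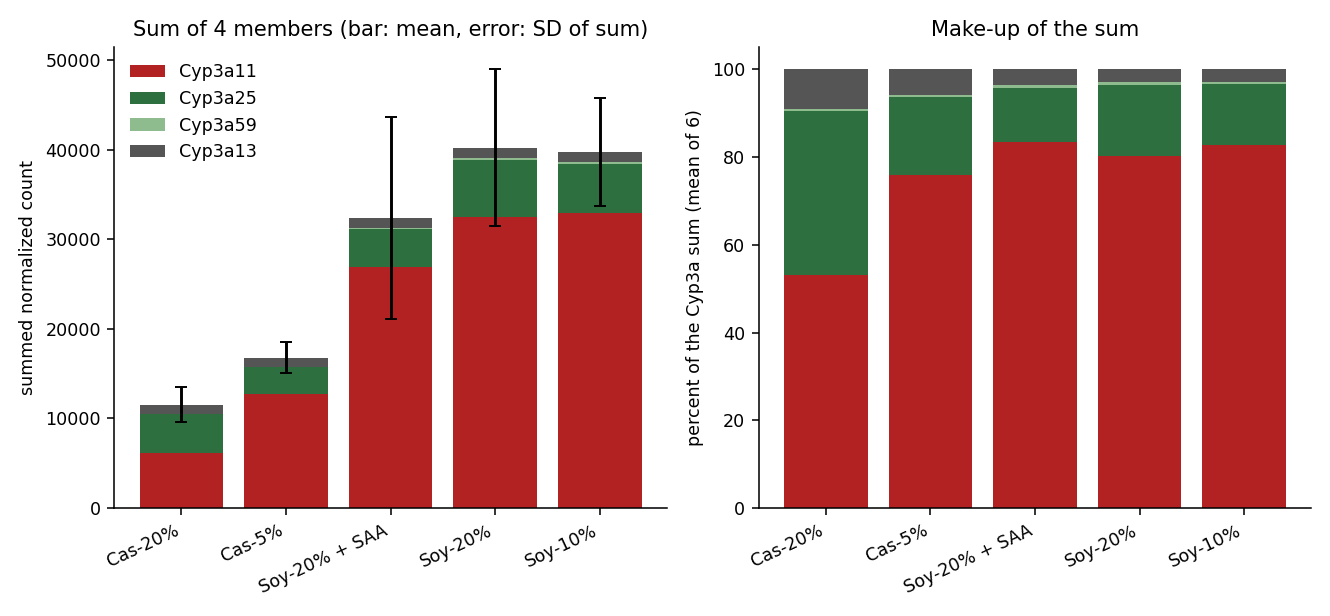
Left, the 4 members stacked as mean normalized counts per diet (6 livers each, bars from 0), with the SD of their sum as error bars. Right, the mean percent of the sum that each member made up, with *Cyp3a11* at 53.1% on Cas-20% and 76.0% to 83.5% on the other 4 diets.

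The make-up of the family was most different on Cas-20%. *Cyp3a11* made up 53.1% ± 3.9 of the summed tags on Cas-20%, 76.0% ± 1.6 on Cas-5%, 83.5% ± 2.7 on Soy-20% + SAA, 80.3% ± 3.8 on Soy-20% and 82.7% ± 1.5 on Soy-10%. Its highest share on Cas-20%, 57.8%, was below its lowest share on any other diet, 74.3%. *Cyp3a25* made up 37.3% ± 3.6 on Cas-20%, 17.8% ± 1.1 on Cas-5% and between 12.2% and 16.2% on the soy diets. *Cyp3a13* made up 8.94% on Cas-20%, 5.93% on Cas-5% and between 2.94% and 3.61% on soy, while its own mean count stayed between 985.0 and 1148. The near copies did not keep 1 ratio: there were 60.5 ± 9.6 *Cyp3a25* tags for each *Cyp3a59* tag on Cas-20%, 57.2 ± 6.4 on Cas-5%, 30.4 ± 8.0 on Soy-20%, 33.7 ± 5.2 on Soy-10% and 19.3 ± 8.9 on Soy-20% + SAA. In that last diet the ratio was 23.0 and 35.5 in livers 1 and 2, and 11.1 to 17.4 in the 4 livers of raised GC slope. *Cyp3a11* made up 81.4% and 79.8% of the sum in livers 1 and 2 and *Cyp3a25* 16.0% and 16.8%, against 82.5% to 87.0% and 7.68% to 12.4% in livers 3 to 6.

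Casein restriction, Cas-5% against Cas-20%, compared casein diets that differed in protein and its sulfur amino acids. By the paper's diet compositions, both restricted diets also held more corn starch and maltodextrin than their controls. These differences cannot be told apart. *Cyp3a11* rose 2.09-fold (log2 fold change 1.06 ± 0.13, adjusted p = 1.1e-05) and *Cyp3a25* fell 1.44-fold (−0.52 ± 0.11, adjusted p = 0.0019), both by edgeR's quasi-likelihood test with Benjamini-Hochberg adjustment over 12076 genes. So 1 of 4 members rose, beside 11.6% of all genes called higher, and 1 of 4 fell, beside 13.3% called lower. For these 2 members the 6 livers of each diet did not overlap, which held for 12.9% of all genes in either direction. The livers tested here and in the soy comparisons below also gave the casein to soy values that chose the family. The p-values of its members are therefore not free of that choice. *Cyp3a59* differed by −0.47 ± 0.18 without passing (95% confidence interval −0.85 to −0.09, adjusted p = 0.063). Of its 6 Cas-5% livers, 4 had fewer counts than any Cas-20% liver. DESeq2 gave it an adjusted p of 0.049, and edgeR called it when Cas-20% liver 1, 3 or 6 was left out (adjusted p = 0.034 to 0.047). Without Cas-20% liver 4, its highest casein liver, it was at −0.29 (adjusted p = 0.16), and its adjusted p was 0.13 with the replicate number as a block and 0.22 in the fit of all 30 livers. *Cyp3a13* differed by −0.03 ± 0.07 (interval −0.18 to 0.12, adjusted p = 0.8). In 1 fit of all 30 livers, whose spread includes the Soy-20% + SAA livers, the *Cyp3a25* fold change was −0.53 ± 0.22 with an adjusted p of 0.079, and *Cyp3a11* kept its call. The sum of the family was 1.45 times higher on Cas-5% than on Cas-20% by its mean, and 5 of 6 Cas-5% livers lay above every Cas-20% liver.

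Soy restriction was compared with each of the soy controls, and no member passed the test against either. Against Soy-20% + SAA, 0 of 4 members were called by edgeR or DESeq2. By edgeR 0 had an unadjusted p under 0.05, and 17.0% of 11983 genes were called. The log2 fold changes were 0.29 for *Cyp3a11* (interval −0.08 to 0.66, adjusted p = 0.26), 0.40 for *Cyp3a25* (−0.22 to 1.02, adjusted p = 0.35), −0.34 for *Cyp3a59* (−0.81 to 0.13, adjusted p = 0.29) and 0.09 for *Cyp3a13* (−0.06 to 0.24, adjusted p = 0.39). Both signs turned with the 4 livers of raised GC slope left out, when *Cyp3a11* was at −0.12 and *Cyp3a25* at −0.38, and with the slope as a covariate, when they were at −0.10 and −0.28. *Cyp3a59* was then at −0.67 and −0.62 and *Cyp3a13* at 0.17 and 0.10, all without a call. Soy-20% + SAA liver 1, the highest liver of that diet for both genes, also bore on these values. It is 1 of the 2 control livers that remain without those 4. With only liver 1 left out, *Cyp3a11* (0.48, adjusted p = 0.01) and *Cyp3a25* (0.75, adjusted p = 0.022) were called higher on Soy-10%.

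Against the unsupplemented Soy-20%, where no library had that slope, edgeR and DESeq2 again called 0 of 4 members. By edgeR 0 had an unadjusted p under 0.05, and 0.866% of 11897 genes were called. *Cyp3a11* differed by 0.01 (interval −0.31 to 0.33, adjusted p = 0.98) and *Cyp3a13* by 0.00 (−0.15 to 0.15). *Cyp3a25* was at −0.19 (−0.41 to 0.03, adjusted p = 0.49) and *Cyp3a59* at −0.43 (−0.93 to 0.08, adjusted p = 0.51). The family sum on Soy-10% was 0.99 times that on Soy-20%.

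Added sulfur amino acids were tested in Soy-20% against Soy-20% + SAA. Both edgeR and DESeq2 called 0 of 4 members, and by edgeR 0 had an unadjusted p under 0.05. Over 11932 genes edgeR called 0.00838% (1 gene, against 873 by DESeq2). *Cyp3a25* was at 0.60 (interval −0.03 to 1.22, adjusted p = 0.23), *Cyp3a11* at 0.28 (−0.15 to 0.72, adjusted p = 0.42), *Cyp3a59* at 0.10 (−0.48 to 0.68) and *Cyp3a13* at 0.10 (−0.06 to 0.25). Without Soy-20% + SAA livers 3 to 6, *Cyp3a25* was at −0.18, *Cyp3a11* at −0.13, *Cyp3a59* at −0.24 and *Cyp3a13* at 0.17, and without liver 1 of that diet *Cyp3a25* was at 0.94 with an adjusted p of 0.017.

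**Figure D3:**
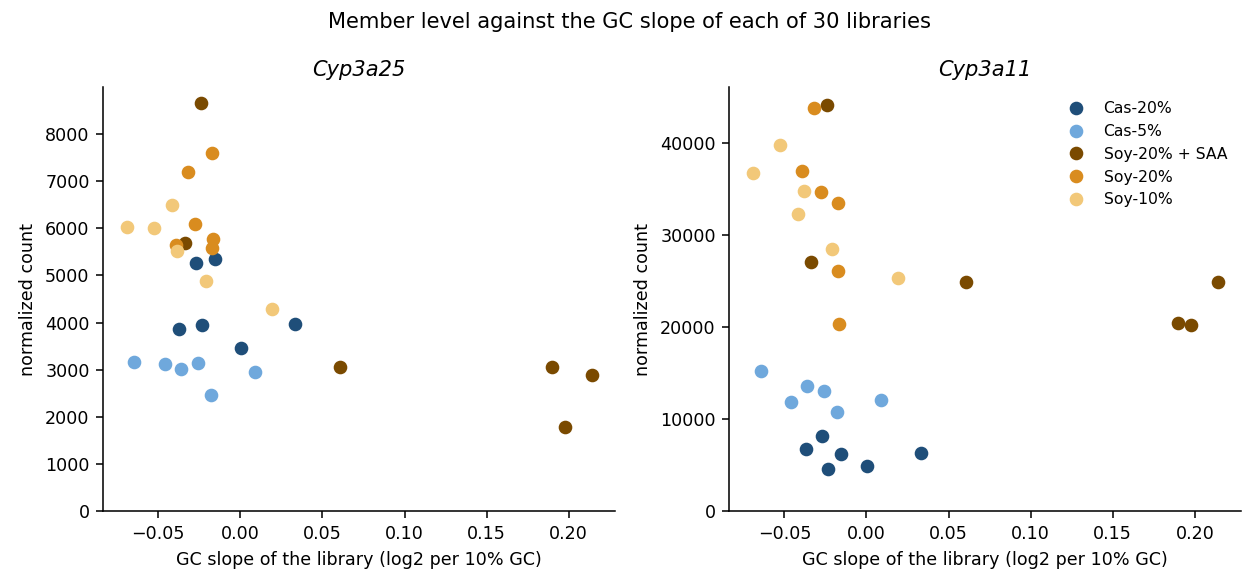
Normalized counts of *Cyp3a25* and *Cyp3a11* (vertical axes from 0) against the GC slope of each of 30 libraries in log2 per 10% GC, with points coloured by diet. The 4 points to the right, at 0.061 to 0.214, are Soy-20% + SAA livers 3 to 6, which hold 1783 to 3070 *Cyp3a25* counts against 4279 to 8647 in the other soy livers.

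The difference between both restrictions was computed over 24 livers as the casein effect minus the soy effect, with Soy-20% + SAA as the soy control. It equals the restricted casein to soy difference minus the unrestricted one, so it is built from the values that chose the family and is given for the members as a description, without a test. *Cyp3a11* stood at 0.77 ± 0.23 (SE), at 1.18 ± 0.23 without Soy-20% + SAA livers 3 to 6, at 1.11 ± 0.20 with the GC slope as a covariate and at 1.04 when the unsupplemented diet took the place of the soy control. *Cyp3a25* stood at −0.93 ± 0.33, but at −0.15 without those 4 livers and −0.34 against Soy-20%. *Cyp3a59* was at −0.14 and 0.19 and *Cyp3a13* at −0.13 and −0.21, with and without those livers. For genes outside the family the same contrast was tested by edgeR, and 3.20% of 12532 genes were called with a positive difference.

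**Figure D4:**
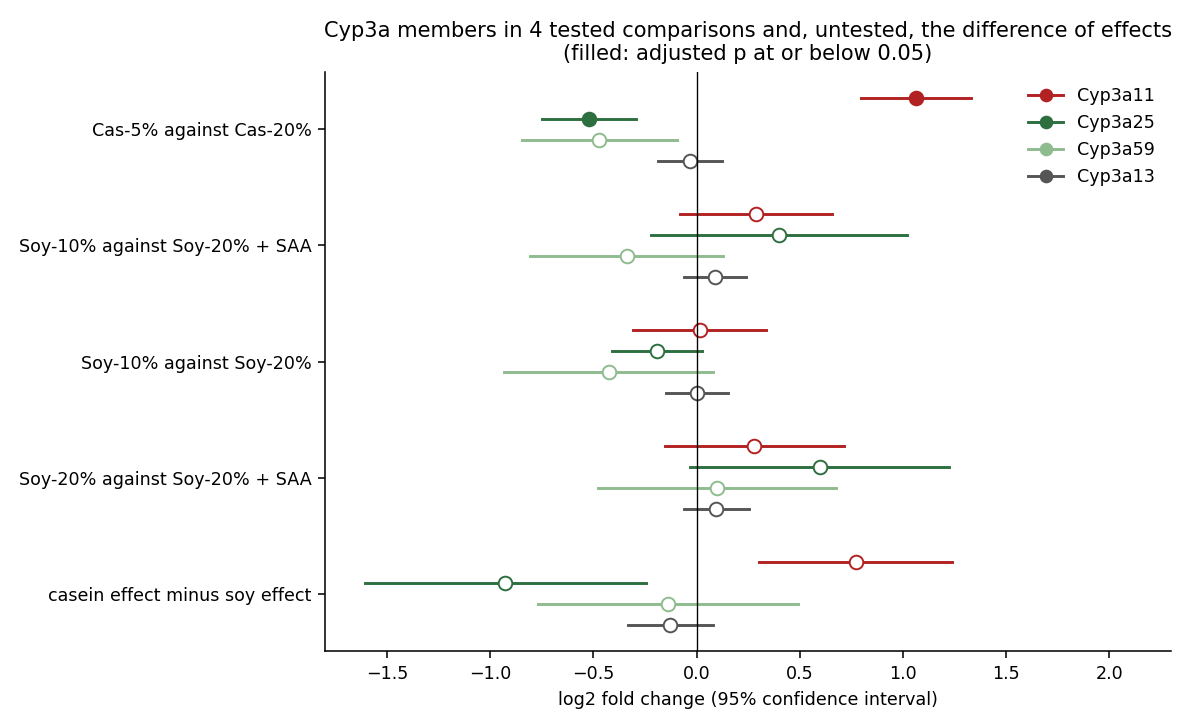
Log2 fold changes of the 4 members (horizontal axis, points with 95% confidence intervals) in 4 comparisons of diets and in the casein effect minus the soy effect, filled where the adjusted p was at or below 0.05, with no test in the last. The filled points are *Cyp3a11* (1.06) and *Cyp3a25* (−0.52) in Cas-5% against Cas-20%, and *Cyp3a11* is at 0.77 in the difference of effects.

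The receptors that control the family were measured beside it. *Nr1i2*, which encodes PXR, was at 445.1 ± 37.6 normalized counts on Cas-20% and 467.7 ± 54.3 on Cas-5% (log2 fold change 0.09 ± 0.08, adjusted p = 0.5), at 591.6 ± 104.9 on Soy-20% + SAA, 487.7 ± 41.1 on Soy-20% and 463.3 ± 24.3 on Soy-10%. It fell from Soy-20% + SAA to Soy-10% (−0.36 ± 0.10, adjusted p = 0.031) and not detectably from Soy-20% to Soy-10% (−0.08 ± 0.06, adjusted p = 0.7), and its difference of effects was 0.44 ± 0.14 (adjusted p = 0.045). Without Soy-20% + SAA livers 3 to 6 neither was called (−0.06, adjusted p = 0.79, and 0.14, adjusted p = 0.66). *Nr1i3*, which encodes CAR, rose 1.73-fold under casein restriction (0.79 ± 0.20, adjusted p = 0.0087), from 681.6 ± 284.4 to 1166 ± 51.4, and was at 0.18 ± 0.18 in Soy-10% against Soy-20% (adjusted p = 0.76). *Rxra*, the shared partner, was at 0.15 ± 0.06 under casein restriction (adjusted p = 0.055). *Ahr*, the receptor of the Cyp1 genes, rose 1.62-fold (0.70 ± 0.11, adjusted p = 0.00019), and *Cebpa*, a hepatocyte transcription factor, fell 1.48-fold (−0.56 ± 0.07, adjusted p = 1.5e-05). Of the 17 receptors and partners listed, 4 rose and 3 fell under casein restriction (median 0.07, beside 0.016 over all genes), 2 rose and 1 fell from Soy-20% + SAA to Soy-10% (0 called by edgeR without those 4 livers), and 0 were called by edgeR or DESeq2 from Soy-20% to Soy-10%. Beside this list and those that follow, edgeR called 11.6% of all genes higher and 13.3% lower under casein restriction. In either direction it called 17.0% from Soy-20% + SAA to Soy-10% and 0.866% from Soy-20% to Soy-10%.

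Known targets of PXR or CAR outside the family did not move as 1 group. Of the 24 listed, 21 were in the table, and under casein restriction 3 rose and 7 fell (median −0.11), beside 11.6% and 13.3% of all genes. *Cyp2c37*, a P450 of the 2C subfamily, rose 1.92-fold (0.94 ± 0.18, adjusted p = 0.00094), with 740.5 to 1820 normalized counts on Cas-20% and 1681 to 2825 on Cas-5%. It also rose in Soy-10% against Soy-20% + SAA (1.10 ± 0.11, adjusted p = 0.00013) and against Soy-20% (0.38 ± 0.08, adjusted p = 0.034). *Papss2*, which makes the sulfate donor for sulfation, fell 2.07-fold under casein restriction (−1.05 ± 0.08, adjusted p = 1.3e-07) and again from Soy-20% to Soy-10% (−0.38 ± 0.08, adjusted p = 0.025). *Gstm2*, a glutathione transferase, fell 2.15-fold under casein restriction (−1.10 ± 0.11, adjusted p = 2.8e-06). From Soy-20% + SAA to Soy-10%, 5 of the 21 rose and 2 fell (2 and 2 without Soy-20% + SAA livers 3 to 6), beside 17.0% of all genes called. From Soy-20% to Soy-10% 2 rose and 1 fell, beside 0.866% of all genes called. In the difference of effects 1 was called positive and 2 negative (0 and 4 without those livers). Over all 12532 genes 401 were called positive and 688 negative there.

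The partners that supply electrons and heme to P450 enzymes were given by 14 listed genes. Of these, 1 rose and 3 fell under casein restriction (median −0.01), beside 11.6% and 13.3% of all genes. *Por*, the reductase, had means between 1406 and 1714 normalized counts on the 5 diets and was not called in any comparison (adjusted p = 0.84 under casein restriction and 0.85 from Soy-20% to Soy-10%). *Cyb5r3*, the cytochrome b5 reductase, fell 1.99-fold under casein restriction (−0.996 ± 0.098, adjusted p = 1.7e-06) and 1.60-fold from Soy-20% + SAA to Soy-10% (−0.68 ± 0.11, adjusted p = 0.0015). *Urod*, a heme synthesis enzyme, rose 1.17-fold under casein restriction (0.22 ± 0.07, adjusted p = 0.033). *Pgrmc1*, a heme-binding protein that associates with P450 enzymes, was at 0.01 ± 0.10 under casein restriction (adjusted p = 0.95) and rose from Soy-20% + SAA to Soy-10% (0.26 ± 0.07, adjusted p = 0.019). Of the 14, 3 rose and 2 fell from Soy-20% + SAA to Soy-10% (1 and 1, *Pgrmc1* and *Cyb5r3*, without Soy-20% + SAA livers 3 to 6), and edgeR called 0 and DESeq2 1 from Soy-20% to Soy-10%.

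Because some Cyp3a genes differ by sex and by zone of the liver lobule, listed genes of both kinds were set beside them. Over all genes, 11.6% were called higher and 13.3% lower under casein restriction. Of 18 male-predominant genes in the table, 17 were tested, and 2 rose and 4 fell under casein restriction (median 0.04). *Cyp4a12b*, a fatty acid hydroxylase, fell 10.5-fold (−3.40 ± 0.31, adjusted p = 8.4e-07) and its near copy *Cyp4a12a* 2.09-fold (−1.06 ± 0.16, adjusted p = 9.3e-05), while *Cspg5* rose 5.58-fold (2.48 ± 0.42, adjusted p = 0.00034). Counts of *Cspg5* were low, at 8.73 ± 4.80 on Cas-20% and 49.05 ± 24.77 on Cas-5%. Near copies such as *Cyp4a12a* and *Cyp4a12b* can share reads, so their separate counts are uncertain. *Cyp4a12b* also fell from Soy-20% to Soy-10% (−1.42 ± 0.19, adjusted p = 0.0018). Of 20 female-predominant genes listed, 14 were in the table and 10 were tested, and 3 rose and 1 fell under casein restriction (median 0.68). *Lepr*, the leptin receptor, rose 13.6-fold (3.76 ± 0.26, adjusted p = 3.8e-08), *Cyp4a14*, a fatty acid hydroxylase, rose 6.41-fold (2.68 ± 0.59, adjusted p = 0.0028), and *Cyp17a1*, a steroid hydroxylase, fell 3.25-fold (−1.70 ± 0.29, adjusted p = 0.00039). Counts of *Lepr* were low on Cas-20%, at 15.2 ± 9.9, against 205.6 ± 42.5 on Cas-5%. Of 15 pericentral genes, which mark hepatocytes around the central vein, 2 rose and 7 fell under casein restriction (median −0.14), with *Oat* at −2.46 ± 0.14 (adjusted p = 7e-09), *Lect2* at −0.90 ± 0.12 (adjusted p = 2.8e-05) and *Tbx3* at 0.87 ± 0.14 (adjusted p = 0.00018), and 0 were called from Soy-20% to Soy-10% by edgeR or DESeq2. From Soy-20% + SAA to Soy-10%, 4 pericentral genes rose and 6 fell (0 and 1 without Soy-20% + SAA livers 3 to 6), with *Oat* at −1.12 ± 0.19 (adjusted p = 0.0019, and −0.96 with 0.028 without those livers). In the same comparison 2 male-predominant genes rose and 1 fell (1 and 2 without them), and 2 female-predominant genes rose (1 without them). *Lepr* also rose from Soy-20% to Soy-10% (1.20 ± 0.26, adjusted p = 0.043), the 1 female-predominant gene called there. Its counts were 12.1 ± 4.3 on Soy-20% and 28.2 ± 8.0 on Soy-10%.

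The genes most like the family were found by Pearson's r between log2 values and the log2 family sum over 30 livers, among 11988 other genes with a mean of at least 10 normalized counts. These values are a description, since the livers share diets and libraries, and the sum itself is mostly *Cyp3a11* (r = 0.988), with *Cyp3a59* at 0.845, *Cyp3a25* at 0.605 and *Cyp3a13* at 0.534. The highest was *Ces2a*, a carboxylesterase that hydrolyses drugs and lipids, with r = 0.863. Its means were 1394 ± 124.7 on Cas-20% and 1246 ± 137.7 on Cas-5%, against 2824 ± 273.1 on Soy-20% + SAA, 2885 ± 385.4 on Soy-20% and 3122 ± 355.6 on Soy-10%, so it followed the split between casein and soy without the step between the casein diets. Next came *9130409I23Rik* (0.820), *Ikbkg*, a regulator of NF-kappa-B signalling (0.797), *Pgrmc1* (0.787) and *Pex11a*, a peroxisome division gene (0.777). The lowest were *Epas1*, a hypoxia-inducible transcription factor (−0.791), *Scarb1*, the receptor of high-density lipoprotein (−0.745), and *Slc29a1*, a nucleoside transporter (−0.745).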

How the data were processed

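Liver RNA of 30 mice was made into QuantSeq 3′ FWD libraries by the authors, sequenced on a NextSeq 500 and processed with the Bluebee QuantSeq pipeline 2.3.6. The labels name GRCm38, R 4.0.3 and DESeq2 1.30, and the aligner and counting settings are not given in the sources used here. The first deposited table holds raw counts per gene, made by the authors without normalization, and the lowest total of a gene over all livers is 90. The second deposited table holds a normalized signal, which equals the count divided by 1 size factor per library.

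Counts were tested in R 4.3.3 with edgeR 4.0.16 (filterByExpr, TMM, quasi-likelihood F test, Benjamini-Hochberg adjustment over all genes tested, threshold 0.05) between pairs of diets and, for the difference of effects, over 24 livers. That difference was planned as a test of the members too, but is given for them without one, since it is built from the casein to soy values that chose them. Confidence intervals use the SE and the test's degrees of freedom. DESeq2 1.42.0, other scalings, filters, samples and covariates were alternatives. Each test was first checked on simulated counts. Levels, sums and shares were computed from normalized counts in Python 3.11.15, promoters and transcript likeness with Biopython 1.88, and figures with matplotlib 3.10.9. GC slopes used the last 200 nucleotides of GENCODE M21 transcripts, and likeness the last 400 nucleotides in stretches of 50, the read length in the labels, and of 75, that in the study's methods.

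The members and the gene lists were chosen with earlier results of these data known. Named genes were all members, the 2 genes of each list with the smallest adjusted p under casein restriction and from Soy-20% to Soy-10%, *Nr1i2*, *Nr1i3*, *Por*, and the 5 highest and 3 lowest genes by correlation with the family sum.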

Additional observations from a re-analysis of the deposited data

Results flagged for a closer look

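In 6 of 25 groups of 6 livers (5 diets for each of 4 members and their sum), 1 liver stood apart from the others beyond Dixon's 95% critical value, where chance alone gives about 1 in 20, and the members share livers. Soy-20% + SAA liver 1 was the highest of its diet for *Cyp3a11* (44024), *Cyp3a59* (375.5) and the sum (54088). Cas-5% liver 4 was the lowest of its diet for *Cyp3a25* (2461). For *Cyp3a13*, Soy-20% liver 2 (1359) and Soy-10% liver 6 (1337) were the highest of their diets.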

How the results depend on the processing

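Near copies limit the separate counts of *Cyp3a25* and *Cyp3a59*, and the 34 to 393 raw counts of *Cyp3a59* leave wide intervals. With this pair summed into 1 row, edgeR called 2 rows in Cas-5% against Cas-20%, *Cyp3a11* and the summed pair. In Soy-10% against either soy control it called 0. The summed row is mostly *Cyp3a25*, with 60.5 and 57.2 of its tags for each *Cyp3a59* tag on Cas-20% and Cas-5%. Its call therefore follows that of *Cyp3a25* and cannot tell whether *Cyp3a59* changed. The fold changes of the summed pair are not given here. The planned sum of *Cyp3a41a* and *Cyp3a41b* was not run, since neither was analysed here, and a sum of *Cyp3a25* and *Cyp3a59*, the GC covariate for casein against soy, stretches of 75 nucleotides, and the family's sums, shares and ratios without Soy-20% + SAA livers 3 to 6 were chosen after seeing the data. Where direction or call changed, the cause was not tested.

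For Cas-5% against Cas-20%, 1 member was called in the fit of all 30 livers in place of 2, and *Cyp3a13* was at 0.029 with the GC slope and between −0.068 and 0.008 with 1 liver left out. For Soy-10% against Soy-20% + SAA, *Cyp3a11* was at −0.105 with the GC slope and −0.12 without Soy-20% + SAA livers 3 to 6, *Cyp3a25* at −0.282 and −0.379, and genes called over the whole table numbered 323 and 317, with 3077 in the fit of all livers. Leaving out 1 liver gave 0 to 2 members and 1219 to 3119 genes called, the highest of both without Soy-20% + SAA liver 1. For Soy-10% against Soy-20%, 217 genes were called by DESeq2 and 62 in the fit of all livers, and 50 to 146 with 1 liver left out. With the GC slope *Cyp3a11* was at −0.068 and *Cyp3a13* at −0.009, and with 1 liver left out they lay between −0.086 and 0.12 and between −0.046 and 0.059.

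For Soy-20% against Soy-20% + SAA, edgeR called 2 genes with DESeq2 size factors, 2 without the filter, 2 with at least 10 counts in every liver, 0 with the GC slope and 0 without livers 3 to 6, against 873 by DESeq2 and 1793 in the fit of all livers. With 1 liver left out 0 to 1587 genes and 0 to 1 members were called, the highest of both without Soy-20% + SAA liver 1. *Cyp3a11* was at −0.074 with the GC slope and −0.131 without livers 3 to 6, *Cyp3a25* at −0.014 and −0.185, and *Cyp3a59* at −0.117 and −0.237, with −0.098 to 0.334 for *Cyp3a59* when 1 liver was left out. For the casein effect minus the soy effect, 506 genes were called with the GC slope and 296 without livers 3 to 6, and 719 to 1941 genes with 1 liver left out. Calls of the members are not given there, since the contrast is no test of the family. *Cyp3a59* was at 0.1 and 0.188 under the first 2 settings and between −0.373 and 0.043 with 1 liver left out.

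The log2 ratio of the family sum without *Cyp3a11* was −0.428 for Cas-5% against Cas-20%, −0.022 for Cas-20% against Soy-20% + SAA, −0.773 for Cas-5% against Soy-10% and −0.51 for Cas-20% against Soy-20%. Without *Cyp3a25* it was 0.928, −1.959 and −2.225 in the first, second and last of these. Without Soy-20% + SAA livers 3 to 6 it was −0.147 for Soy-10% and −0.13 for Soy-20% against that diet and −1.928 for Cas-20% against it, and with *Cyp3a11* left out as well it was −0.301, −0.137 and −0.646.

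Replicate numbers are shared between diets, but same-numbered livers deviated with correlations between −0.155 and 0.219, so they were not taken as pairs. With the replicate number as a block, the difference of effects, a description for the members, was −1.041 for *Cyp3a25* and 0.743 for *Cyp3a11*. The block changed no call of a member in the tested comparisons.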
